A study of Mus musculus with 8 samples.

Results

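RNA-DNA hybrids of *Rtel1*-proficient mouse embryonic fibroblasts (MEFs) were compared with and without induction of RNaseH1, by setting the peak list of the doxycycline-treated library against that of the mock-treated library. The GFP mock list held 87613 peaks and the GFP DOX list 60219, of 344010 peaks in the 4 lists of the series. A peak was counted as shared where it overlapped a peak of the other list by at least 1 bp. A mock peak without such an overlap is called lost, a mock peak with one is called kept, and a DOX peak without one is called gained. These words describe lists and not a tested change, since each condition had 1 library.

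R-loops are structures made of a transcript hybridized to the template DNA and of the unpaired non-template strand. They arise at transcribed, GC-rich promoters and near the ends of genes, and a displaced strand that is rich in guanine can fold into a G-quadruplex (G4). RNaseH1 degrades the RNA strand of such hybrids, so its overexpression is a common way to test whether a signal obtained with the hybrid-binding S9.6 antibody comes from R-loops.

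All cells were Rtel1F/F;WT RNH1-GFP MEFs, in which both copies of *Rtel1*, a DNA helicase gene, are floxed and a lentiviral vector carries human WT RNaseH1-GFP under doxycycline control. Cells given an adenovirus for GFP retained *Rtel1* (GFP cells), whereas one for Cre-GFP deleted it (Cre cells, which serve here only for comparison). From 48 h after infection, cells were kept for 48 h with doxycycline at 2 μg/ml (GFP DOX and Cre DOX) or without it (GFP mock and Cre mock). The integrated vector was present in the mock-treated cells as well. No doxycycline-treated cells without the vector were among the samples, so that effects of RNaseH1 and of doxycycline itself cannot be told apart. For each library DNA was cut with restriction enzymes, hybrids were pulled down in 3 parallel immunoprecipitations, and these were pooled before sequencing. Read depth is unknown from the peak lists, and a peak missing at lower depth or from fewer cells cannot be told apart from fewer hybrids per cell. Intervals given with shares are exact 95% Clopper-Pearson intervals and cover counting error only. Of 13 fibroblast marker genes, 8 had a peak (gene and flanks of 1 kb) in GFP mock and 7 in GFP DOX, against 7 and 6 of 11 markers of other cell types, so that the lists do not by themselves identify the cells. The covered length was 14.6 and 20.4 kb at the fibroblast markers and 12.8 and 8.64 kb at the others, and its part in the results below was not tested.

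Sequences of a few peaks at gene starts show what the lists contain. They are up to 200 bases long, lie outside annotated untranslated regions and are written 5′ to 3′ on the plus strand, on which all of the named genes lie (mm10). Capitals mark 25-base windows with an absolute G4Hunter score of at least 1.5, a sequence-based prediction of G4 folding. The strongest peak lost at the start of a gene lay upstream of *Ppp2cb*, which encodes a catalytic subunit of protein phosphatase 2A. Its sequence, from chr8:33598755-33598954, held 62 such bases:
Ppp2cb, lost: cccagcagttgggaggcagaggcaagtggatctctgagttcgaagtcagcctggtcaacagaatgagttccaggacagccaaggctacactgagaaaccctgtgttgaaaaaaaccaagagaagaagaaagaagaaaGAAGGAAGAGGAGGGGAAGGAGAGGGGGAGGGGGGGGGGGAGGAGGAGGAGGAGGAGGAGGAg
The strongest kept peaks are represented by a mitochondrial peak that spans several gene starts, shown by a stretch within *mt-Nd2*, a subunit of respiratory complex I (chrM:4749-4948), and by the highest-ranked one at a nuclear gene, *Mpnd* (chr17:56005803-56005973), whose product is an MPN-domain protein:
Mitochondrial peak, kept: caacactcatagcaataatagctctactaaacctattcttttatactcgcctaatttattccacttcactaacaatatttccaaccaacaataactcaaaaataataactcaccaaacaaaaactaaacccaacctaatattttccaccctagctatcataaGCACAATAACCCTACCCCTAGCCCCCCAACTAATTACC
Mpnd, kept: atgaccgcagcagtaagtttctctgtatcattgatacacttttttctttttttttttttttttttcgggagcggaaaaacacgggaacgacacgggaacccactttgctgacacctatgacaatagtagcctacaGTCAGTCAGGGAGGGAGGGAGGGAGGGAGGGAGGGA
*Fam98b* gained a start peak by gene, with a DOX peak of score 54 that lay over an annotated small nuclear RNA gene, Gm25189 (chr2:117248214-117248413). As a peak it was shared, since it overlapped a mock peak of score 84 beyond the flanks of the gene. *Rps23*, which encodes a protein of the small ribosomal subunit, had one of the widest gained peaks (chr13:90922758-90922957):
Fam98b, gained by gene and shared as a peak: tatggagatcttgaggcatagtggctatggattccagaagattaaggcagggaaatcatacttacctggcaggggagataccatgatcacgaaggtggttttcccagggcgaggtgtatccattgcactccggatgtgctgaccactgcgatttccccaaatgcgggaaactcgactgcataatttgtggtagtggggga
Rps23, gained: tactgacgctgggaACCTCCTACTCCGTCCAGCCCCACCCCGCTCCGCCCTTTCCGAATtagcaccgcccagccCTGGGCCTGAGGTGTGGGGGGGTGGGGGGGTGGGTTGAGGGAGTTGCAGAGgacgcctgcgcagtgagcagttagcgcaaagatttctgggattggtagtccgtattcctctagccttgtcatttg
The sequence of *Fam98b* held no base in such a window, whereas that of *Rps23* held 96.

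Most mock peaks had no counterpart after doxycycline treatment, and the share differed along genes. Of the 87613 mock peaks, 60790 (69.4%, 69.1 to 69.7) were lost and 26823 were kept. Much of both lists lay in repeats, with a median repeat-masked share of 86.5% per peak in GFP mock and 93.8% in GFP DOX. Only 31759 mock peaks were at most 50% masked, and 74.7% of these were lost. At starts the median masked share was 8.24% for lost and 7.925% for kept peaks. Peaks within 1 kb of a transcript start of a protein-coding gene were lost least often, in 5033 of 8842 cases (56.9%, 55.9 to 58.0). Peaks within 1 kb of the 3′ end of a gene followed, with 974 of 1518 lost (64.2%, 61.7 to 66.6). Peaks elsewhere in genes (gene bodies) were lost most often, in 17911 of 23904 cases (74.9%, 74.4 to 75.5), and peaks outside protein-coding genes in 36872 of 53349 cases (69.1%, 68.7 to 69.5). Within gene bodies, 65.7% (63.7 to 67.7) of the 2282 peaks over coding exons were lost against 76.0% (75.4 to 76.6) of the 20961 peaks that lay in introns only. The order of starts, ends and bodies held within each range of scores below 50, but not among the highest peaks of both lists: with the top decile of each list 73.6% of start, 68.4% of end and 76.2% of body peaks were lost, and with a −log10 q-value of at least 5 in both lists the values were 72.4%, 60.0% and 72.9%.

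**Figure D1:**
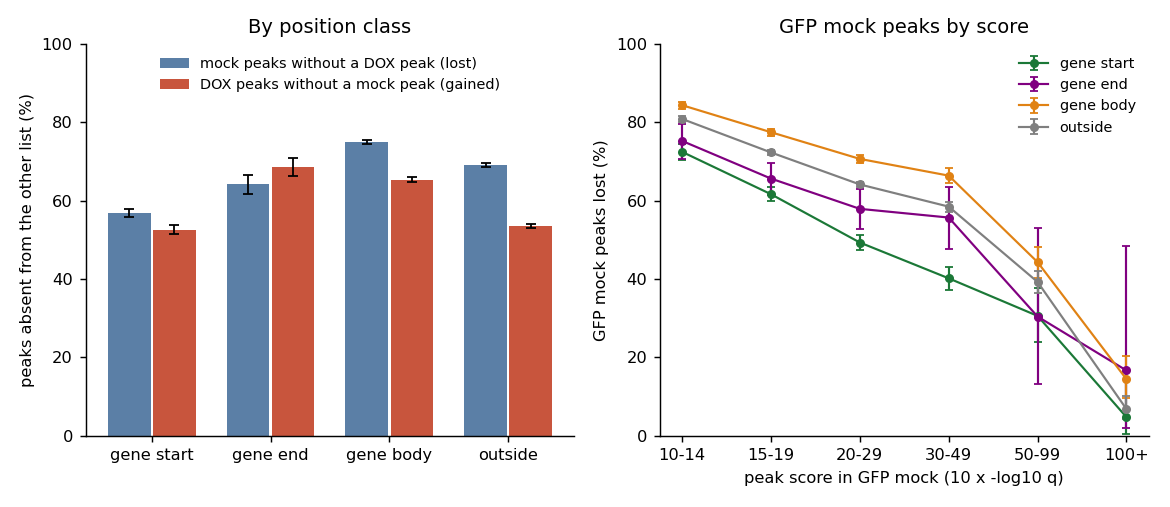
Left, the percentage of peaks without an overlapping peak in the other GFP list by position class, with GFP mock peaks in blue (lost) and GFP DOX peaks in red (gained). Right, the percentage of GFP mock peaks lost in 6 ranges of peak score. Bars and points are shares of 1 list and error bars are exact 95% intervals of counting error; loss was least at gene starts (56.9%) and greatest in gene bodies (74.9%), and it declined with score in each class.

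Doxycycline treatment also went with peaks that the mock list lacked. Of the 60219 DOX peaks, 34309 (57.0%, 56.6 to 57.4) were gained. The share was 52.6% (51.5 to 53.7) at gene starts, 68.7% (66.3 to 71.0) at gene ends, 65.4% (64.7 to 66.1) in gene bodies and 53.5% (52.9 to 54.0) outside genes. In number, DOX peaks amounted to 0.885 of mock peaks at starts (7825 against 8842), 0.684 in bodies (16350 against 23904) and 0.647 outside genes (34518 against 53349). At gene ends the lists were equally long, with 1526 DOX and 1518 mock peaks. When the mock list was reduced to its 60219 highest-scoring peaks, it held 6175 start peaks, fewer than the DOX list.

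The bases covered did not follow the number of peaks. Start peaks covered 4.72 Mb in GFP mock and 5.74 Mb in GFP DOX, 1.22 times as much, with a median width of 362 and 411 bp. End peaks covered 0.685 and 0.907 Mb (1.32 times), but 0.582 times as much with a −log10 q-value of at least 3 and 0.626 times with one of at least 5. Body peaks covered 8.48 and 7.32 Mb (0.863 times), of which those over coding exons covered 1.02 and 1.19 Mb (1.17 times) and those in introns only 7.25 and 5.91 Mb (0.815 times). At starts 280 mock peaks and 582 DOX peaks were wider than 2000 bp, and these covered 0.841 and 2.10 Mb. The greater length at starts depended on the threshold: DOX over mock length there was 1.11 with a −log10 q-value of at least 2 and 0.867 with one of at least 3, and it was 1.54 with equal numbers of peaks. With the threshold of 3 peaks were fewer after doxycycline in each class (619 against 1290 at starts, 1257 against 3272 in bodies).

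Within 5 kb of gene starts and ends, the DOX list covered fewer genes just downstream of the start and more farther into the gene. This does not extend to gene bodies as a whole, where DOX peaks covered 0.863 times the mock length. A mock peak covered 10.1% of the 21938 nuclear protein-coding genes at 200 bp downstream of the start, and a DOX peak covered 8.77%. At 3000 bp downstream the values were 2.10% and 2.81%, and at the gene end itself 1.77% and 2.95%. At 5000 bp upstream of the start the lists hardly differed, with 1.86% and 1.90%.

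**Figure D2:**
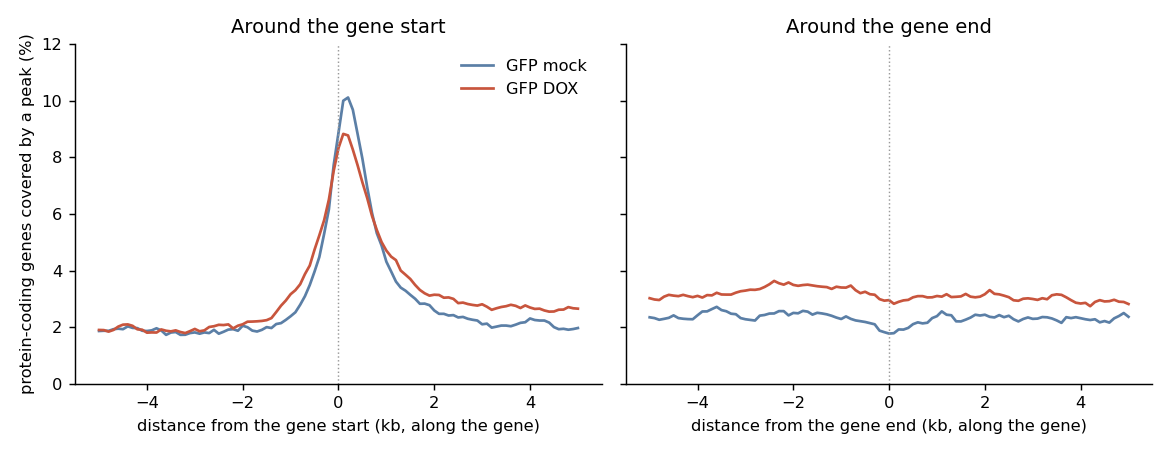
The percentage of nuclear protein-coding genes covered by a peak at each distance from the 5′-most gene start (left) and from the gene end (right), in steps of 100 bp along the direction of the gene, for GFP mock (blue) and GFP DOX (red), 1 library each. The mock line is higher just downstream of the start (10.1% against 8.77% at 200 bp), and the DOX line is higher from about 1 kb onward and around the end (2.95% against 1.77% at the end itself).

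Kept peaks differed from lost peaks in width, score and sequence, and the direction of the difference in sequence depended on position. Kept start peaks had a median width of 548 bp against 277 bp for lost start peaks, a median score of 21 against 17 (the score is 10 times the −log10 q-value, rounded down) and a median GC content of 62.0% against 57.5%. Over all mock peaks the median GC content was lower in kept than in lost peaks, 42.2% against 47.0%. It was also lower in bodies (45.5% against 48.1%) and outside genes (39.05% against 45.28%), but not at gene ends (52.84% against 51.45%). Among start peaks, 72.0% (70.6 to 73.5) of those kept and 48.8% (47.4 to 50.2) of those lost contained a predicted G4. Over all peaks the shares were 26.8% and 23.1%, and outside genes 15.3% and 18.8%. Since a wider peak holds a G4 and meets another peak more readily, these shares are not adjusted for width. Mock start peaks of at most 150 bp were lost in 1298 of 1664 cases, and those wider than 2000 bp in 3 of 280. Among peaks over 500 and up to 1000 bp wide, 41.0% of start peaks and 54.5% of body peaks were lost, and above 2000 bp 1.07% and 1.04%. In the libraries of the Cre cells, which the definition did not use, 83.0% of kept and 35.8% of lost start peaks overlapped a Cre mock peak, and 45.5% of gained start peaks did so. Among 2929 start peaks that paired 1 to 1, the DOX peak had the lower score in 1700 (58.0%), and the median ratio of widths was 1.03.

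Counted by gene, 6755 of 21951 protein-coding genes had a mock peak at a start and 5672 had a DOX peak there. Of the 6755, 2677 had none in the DOX list (39.6%) and 4078 kept one. Of the 5672, 1594 had none in the mock list (28.1%). At gene ends 969 of 1589 genes lost their peaks (61.0%) and 940 of 1560 gained them (60.3%). In gene bodies 3101 of 8104 lost all of them (38.3%) and 1427 of 6430 gained them (22.2%). Genes with several peaks count as kept if any of their windows held a DOX peak, so these shares are lower than those of peaks; over all peaks the shares were 69.4% lost and 57.0% gained. By quartiles of the GC content around the 5′-most start (1 kb to either side), from low to high, 55.5, 56.5, 45.2 and 29.1% of genes with a mock start peak lost it. Of genes with a DOX start peak, 93 of 310 gained it in the lowest quartile and 41.8, 37.3 and 19.4% in the others, which followed no such order.

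The genes named next were chosen for the strongest lost start peaks among genes without any DOX peak over the gene or its flanks of 1 kb, so that the absence of DOX peaks is part of the choice. *Ppp2cb* had a mock peak of score 160 and 7.21-fold enrichment, 550 bp wide (chr8:33598413-33598962). That site scored 128 in Cre mock and 143 in Cre DOX, so GFP DOX was the list without it. *Impact*, an inhibitor of the stress kinase GCN2, followed with a score of 114, against 13 in Cre mock and 24 in Cre DOX. *Lcp2*, a signaling adaptor of T cells, had a mock score of 79 in an intron and 46 in Cre mock. *Pou4f3*, a transcription factor of inner-ear hair cells, scored 71 and *Dbr1*, the debranching enzyme of intron lariats, scored 67, both in GFP mock alone. *Rbm28*, a nucleolar RNA-binding protein, scored 68 in GFP mock and 64 in Cre mock. The GFP mock peaks of these genes other than *Ppp2cb* and *Pou4f3* were at most 161 bp wide.

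The widest start peaks of genes without a DOX peak were lower in score. That of *Btrc*, the F-box protein that recognizes beta-catenin, was 1908 bp wide with a score of 15 in GFP mock, and Cre mock and Cre DOX had scores of 14 and 22 there. *Krtap4-9*, a keratin-associated protein, had a peak of 1598 bp with a score of 30, and *Pex6*, a peroxisomal ATPase, one of 1500 bp with a score of 19. The peak of *Obp1a*, an odorant-binding protein, was 1723 bp wide and overlapped a 360-bp DOX peak that lay beyond 1 kb from the gene.

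Genes named for gained start peaks had no mock peak over the gene or its flanks, though a DOX peak that reached beyond them could meet a mock peak there. *Rnpc3*, a protein of the minor spliceosome, had a DOX score of 50 and a Cre mock score of 47. *Gkn2*, a stomach-expressed gastrokine, and *Lgi3*, a secreted protein of the nervous system, scored 47 and 45 in GFP DOX alone. *Mup1*, a major urinary protein, scored 47, and its near-identical family members make the placement of reads uncertain. The DOX start peaks of *Rnpc3*, *Gkn2*, *Mup1* and *Lgi3* were at most 176 bp wide. The widest gained peak spanned 5617 bp over *Jmjd8* and *Stub1*, the gene of the chaperone-associated ubiquitin ligase CHIP, with a score of 26 against 40 in both Cre lists. *Fam173a* gained a start peak by gene, with a DOX peak of 5384 bp that as a peak counts as shared, since it met a mock peak of 144 bp beyond the flanks. Further wide gained peaks were those of *Pygo2*, a coactivator of Wnt signaling, with 2424 bp and 5 DOX peaks in all, and of *Rps23* with 2292 bp and a score of 38.

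Several of the strongest kept peaks had like scores and widths in both lists. A peak that reached within 1 kb of the starts of *mt-Nd1*, *mt-Nd2*, *mt-Co1* and *mt-Co2* of the mitochondrial genome scored 1028 in GFP mock and 1156 in GFP DOX. Its width was 6472 and 6473 bp. Another that reached within 1 kb of the starts of *mt-Nd4*, *mt-Nd5*, *mt-Nd6* and *mt-Cytb* scored 848 and 786. Whether induced RNaseH1 reached mitochondria was not measured. *Mpnd* and *Stap2*, which share a peak, scored 578 and 635, and *Phf21a*, a subunit of a histone demethylase complex, 346 and 380. *Mknk2*, a kinase of the translation factor eIF4E, scored 540 and 292, at 20.1-fold and 13.1-fold enrichment. The widest kept peaks included *Zbtb7a*, a transcriptional repressor, with 8615 and 8506 bp, *Trim8*, a ubiquitin ligase, with 8436 and 8795 bp, *Dvl2*, a transducer of Wnt signaling, with 8293 and 10850 bp, and *Kmt2d*, a histone H3K4 methyltransferase, with 7336 and 6818 bp. Their scores lay between 28 and 45 in both lists.

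At gene ends the strongest lost peaks were those of *Upk3bl* (score 102), *Mansc1* (69) and *Ankub1* (58), and the strongest gained ones those of *Olr1*, a receptor for oxidized lipoprotein (40), and *Alkbh2*, a DNA repair dioxygenase (39), after *Gimap7* (41), whose DOX peak overlapped a mock peak of score 52 outside the window of the gene. The kept end peak of *Lars2*, a mitochondrial leucyl-tRNA synthetase, scored 801 and 961, that of *Wls*, the Wnt secretion factor, 739 and 747, and that of *Mid1*, a microtubule-associated ubiquitin ligase, 367 and 358. In gene bodies *Apod*, an apolipoprotein, lost an intronic peak of score 137 and *Itgad*, an integrin, one of score 128. *C1qtnf7* lost one of score 116. *Prkch*, a protein kinase C, gained an intronic peak of score 92, and *Il1rapl1*, *Lrp1b* and *Kpna1* kept intronic peaks that scored 1454, 591 and 649 in GFP mock and 1096, 617 and 558 in GFP DOX.

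The total covered length differed with gene length, long genes being covered less and short genes more in GFP DOX. Protein-coding genes with 1 kb on either side were covered over 14.8 Mb in GFP mock and 15.1 Mb in GFP DOX, a ratio of 1.02 in which bases shared by neighboring genes count for each. For genes shorter than 5 kb, 4.39% of bases were covered in GFP mock and 5.77% in GFP DOX, 1.32 times as much. The ratio was 1.37 for genes of 5 to 10 kb, 1.10 for genes of 20 to 50 kb, 0.832 for genes of 100 to 200 kb and 0.757 for genes of 500 kb or more, where 0.706% and 0.534% of bases were covered. Counted by gene, 5787 of the 13583 genes covered in either list were covered over more bases in GFP DOX (42.6%). Of the 230 longest genes, 36 were covered over more and 193 over fewer. Genes shorter than 5 kb were nearly even, with 726 and 697, and genes of 10 to 20 kb (1125 and 1243) and of 20 to 50 kb (1543 and 2056) were more often covered over fewer bases, although their total was larger. With peaks of −log10 q of at least 3, genes shorter than 5 kb were covered 1.33 times as much after doxycycline and genes of 500 kb or more 0.496 times, but genes of 10 to 20 kb 0.857 times (1.28 with all peaks) and genes of 20 to 50 kb 0.641 times. With equal numbers of peaks in both lists all bins were above 1, from 1.69 in the shortest to 1.05 in the longest genes. The 5 genes with the most mock peaks in their bodies were all longer than 500 kb. *Cpq*, a carboxypeptidase, had 61 mock and 44 DOX peaks, *Nkain2*, a membrane protein that binds the sodium pump, 59 and 42, *Sntg1*, a syntrophin, 58 and 39, *Dmd*, which encodes dystrophin, 50 and 27, and *Cdh12*, a cadherin, 47 and 34.

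**Figure D3:**
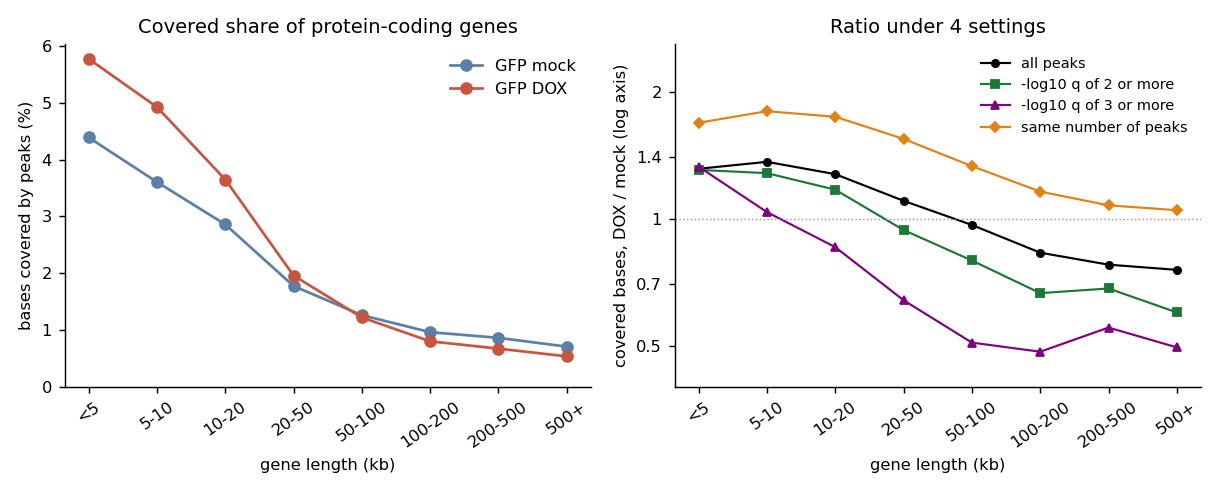
Left, the percentage of bases of protein-coding genes (with 1 kb on either side) covered by peaks in GFP mock (blue) and GFP DOX (red), by gene length in kb. Right, covered bases in GFP DOX over GFP mock on a log axis, with all peaks, with 2 thresholds of the −log10 q-value and with equal numbers of peaks. The ratio with all peaks goes from 1.32 in genes shorter than 5 kb to 0.757 in genes of 500 kb or more, and each setting is higher in the shortest than in the longest genes.

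Cytosolic ribosomal protein genes were among the genes covered over more bases in GFP DOX. Over all genes covered in either list the median difference was −106 bp. Of 77 ribosomal protein genes 66 were covered, 52 of them more in GFP DOX and 14 less, with a median difference of 662 bp. Their covered length was 47.4 kb in GFP mock and 104.8 kb in GFP DOX, 2.21 times as much, and 2.77 and 7.79 times as much with a −log10 q-value of at least 2 and 3. At starts 10 genes lost, 29 kept and 21 gained a peak, so that 25.6% of genes with a mock peak lost it and 42.0% of those with a DOX peak gained it, against 39.6% and 28.1% over all genes. *Rpsa*, of the small subunit, had no mock peak and 3072 covered bases in GFP DOX. *Rpl21*, of the large subunit, went from none to 2069 bases, with a start peak of score 43. *Rps19* was covered over 1304 and 5461 bases, *Rpl5* over 1464 and 4627 and *Rpl38* over 1961 and 4883. The start peak of *Rpl8* scored 19 and 57 and that of *Rpl36* 26 and 57. *Rpl27* and *Rpl24*, of the large subunit, went the other way, from 291 and 106 bases to none, and each had lost a start peak of score 24. In the Cre lists the 77 genes were covered over 174 kb without and 183 kb with doxycycline, more than in either GFP list. Ribosomal protein genes are short, with a median length of 3.24 kb, and many have processed pseudogenes that share reads with them.

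Genes of actin, tubulin and adhesion were also covered over more bases in GFP DOX. Of 49 annotated genes 45 were covered, 34 more in GFP DOX and 11 less, and the covered length was 73.1 and 131 kb (1.79 times) with a median difference of 872 bp. With a −log10 q-value of at least 2, 20 were covered more and 16 less (ratio 1.85), with one of at least 3, 6 more and 8 less (1.62), and with one of at least 5 the ratio was 1.00. Over all genes 3143 were covered more and 6017 less at 2, and 1141 more and 3203 less at 3 (0.681). *Myl12b*, a myosin light chain, is annotated as 2 overlapping genes, of which 1 shares a gained peak with *Myl12a*, so that this region counts repeatedly. At starts 4 lost (12.9%), 27 kept and 10 gained (27.0%) a peak, against 39.6% lost and 28.1% gained over all genes. *Myh9*, the heavy chain of non-muscle myosin, was covered over 12960 and 22052 bases, *Tln1*, which encodes talin, over 3330 and 10810, and *Flna*, which encodes filamin A, over 1435 and 6522. *Cfl1*, the actin-severing protein cofilin, had a start peak of score 20 and 34. *Actb*, beta-actin, a locus commonly examined for R-loops, differed little: its start peak was 2281 bp wide with a score of 20 in GFP mock and 2247 bp wide with a score of 28 in GFP DOX. *Tubb6*, a tubulin, and *Tagln*, an actin-binding protein of smooth muscle, lost start peaks of score 21 and 28.

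**Figure D4:**
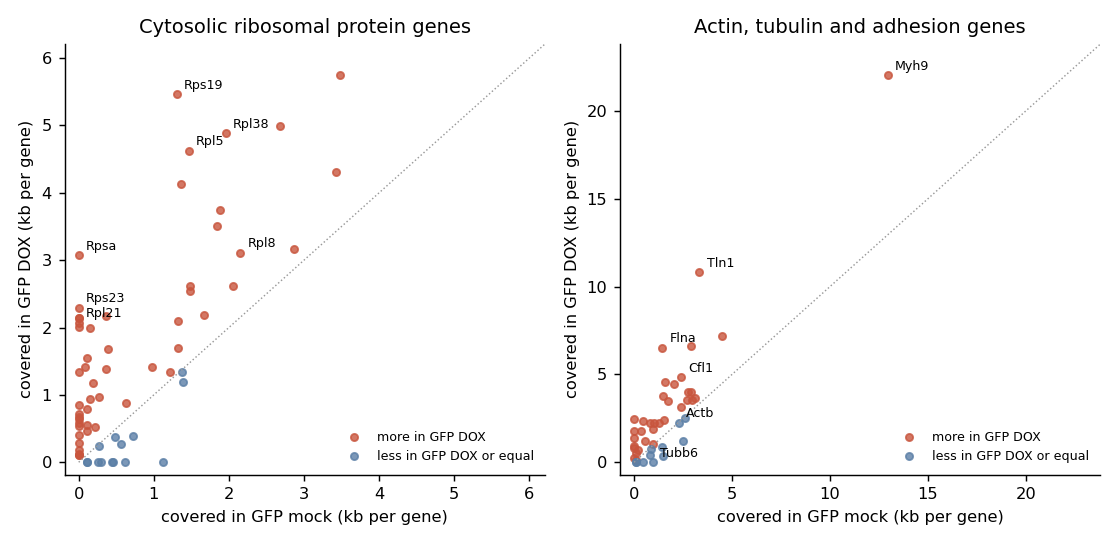
Bases covered by peaks in each gene with 1 kb on either side, in GFP mock (horizontal, kb) and GFP DOX (vertical, kb), for cytosolic ribosomal protein genes (left) and actin, tubulin and adhesion genes (right); each point is 1 gene, and the dotted line marks equal coverage. Most points lie above the line, 52 of 66 ribosomal protein genes and 34 of 45 cytoskeletal and adhesion genes.

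Replication-dependent histone genes, which are short, intronless and expressed in S phase, had the opposite pattern. Of 67 genes 18 had a mock peak at the start, all 18 lost it, and 3 others gained one, against 39.6% lost and 28.1% gained over all genes. The genes lie in clusters, and the 18 rested on 12 separate peaks with a median score of 19.5. *Hist3h2ba* had the highest mock score, 35, and *Hist1h2bl* and *Hist1h2ai* shared a peak of score 33. The gained starts were those of *Hist2h2aa2* (31), *Hist2h3c2* (27) and *Hist1h3e* (14). Covered length was 6.26 kb in GFP mock and 2.01 kb in GFP DOX, and 7.12 and 7.82 kb in Cre mock and Cre DOX. The GFP ratio of 0.322 was 0.530 with a −log10 q-value of at least 2 and 0.574 with equal numbers of peaks. With a −log10 q-value of at least 2 only 8 genes had a mock start peak, each of them lost, and 2 had a DOX peak. Several histone genes are near-identical. The share of cells in S phase is not given for these libraries. The paper reports that the cell-cycle profile was unaffected when WT RNaseH1-GFP was overexpressed.

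Other groups were set against the 39.6% of genes with lost and 28.1% with gained start peaks over all genes. Odorant and vomeronasal receptor genes, silent in fibroblasts and often in repeats, lost start peaks at 65 genes (72.2%), kept them at 25 and gained them at 15 (37.5%), and their covered length was 190 and 140.0 kb (0.736 times). Zinc finger protein genes lost 48 (45.3%), kept 58 and gained 21 (26.6%) start peaks, with a length ratio of 0.926. Hox genes, the homeobox genes of body patterning, lost 12 (40.0%), kept 18 and gained 1 (5.26%): *Hoxd9* lost a peak of score 38, *Hoxa9* gained one of score 16, and the wide peak of *Hoxb9* scored 46 and 60. Mitochondrial ribosomal protein genes lost 9 (45.0%), kept 11 and gained 9 (45.0%). Collagen and matrix genes lost 8 (27.6%), kept 21 and gained 6 (22.2%). By peak, 24 of their 41 mock start peaks had no DOX overlap, against 56.9% of all mock start peaks. Of the collagen and matrix genes 30 were covered more in GFP DOX and 29 less, with a length ratio of 1.24. With a −log10 q-value of at least 2, 16 were covered more and 30 less, with a ratio of 0.876. Over all genes at that threshold covered length was 7029 kb in GFP mock and 6328 kb in GFP DOX. *Col1a1*, the main collagen chain of fibroblasts, was covered over 3342 and 9838 bases, and *Col7a1*, the collagen of anchoring fibrils, over 1523 and 265. *Hspg2*, which encodes the basement membrane proteoglycan perlecan, was covered over 10512 and 23210 bases.

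Genes that answer growth signals or stress are given against the same shares over all genes. Immediate early genes lost 6 (20.7%), kept 23 and gained 5 (17.9%) start peaks. *Mcl1*, a survival factor, kept a peak of score 64 and 31, *Jun* gained one of score 23, and *Junb* lost one of score 20, both being subunits of the AP-1 transcription factor. Genes of the p53 response lost 4 of 16, kept 12 and gained 6 (33.3%), among them *Cdkn1a*, the cell-cycle inhibitor p21, which lost a peak of score 20 and had no DOX peak. Genes of the integrated stress response lost 4 (23.5%), kept 13 and gained 3 (18.8%), and the start peak of *Atf4*, its main transcription factor, scored 30 and 61. DNA replication and checkpoint genes lost 12 (44.4%), kept 15 and gained 12 (44.4%). *Rpa1*, a subunit of the single-strand binding complex, lost a start peak of score 35 and 127 bp, but was still covered over 458 bases in GFP DOX. *Gins1*, of the replicative helicase, lost one of score 34 and 106 bp, and *Rrm1*, of ribonucleotide reductase, kept one of score 21 and 39.

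Genes that act on R-loops and G4s lost 5 (20.8%), kept 19 and gained 6 start peaks, against 39.6% lost and 28.1% gained over all genes. Their covered length was 37.2 and 39.3 kb, a ratio of 1.06 that was 0.939 and 0.854 with a −log10 q-value of at least 2 and 3. By peak, 18 of the 36 mock start peaks of these genes had no DOX overlap, against 56.9% of all mock start peaks. *Supt16*, of the histone chaperone FACT, kept a start peak of score 31 and 82, and *Srsf1*, a splicing factor, one of score 33 and 39. *Dhx9*, a helicase that unwinds RNA-DNA hybrids, was covered over 1504 and 3319 bases. *Fanca*, of the Fanconi anemia pathway, and *Xrn2*, the exonuclease of transcription termination, lost start peaks of score 30 and 29, both of at most 110 bp. *Rnaseh2a*, the catalytic subunit of RNase H2, gained one of score 17. Neither *Rtel1* nor *Rnaseh1*, the mouse gene of the induced enzyme, had a peak in GFP mock or GFP DOX, and *Bcl6* had none either; a peak list of hybrids does not measure expression of the human transgene.

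**Figure D5:**
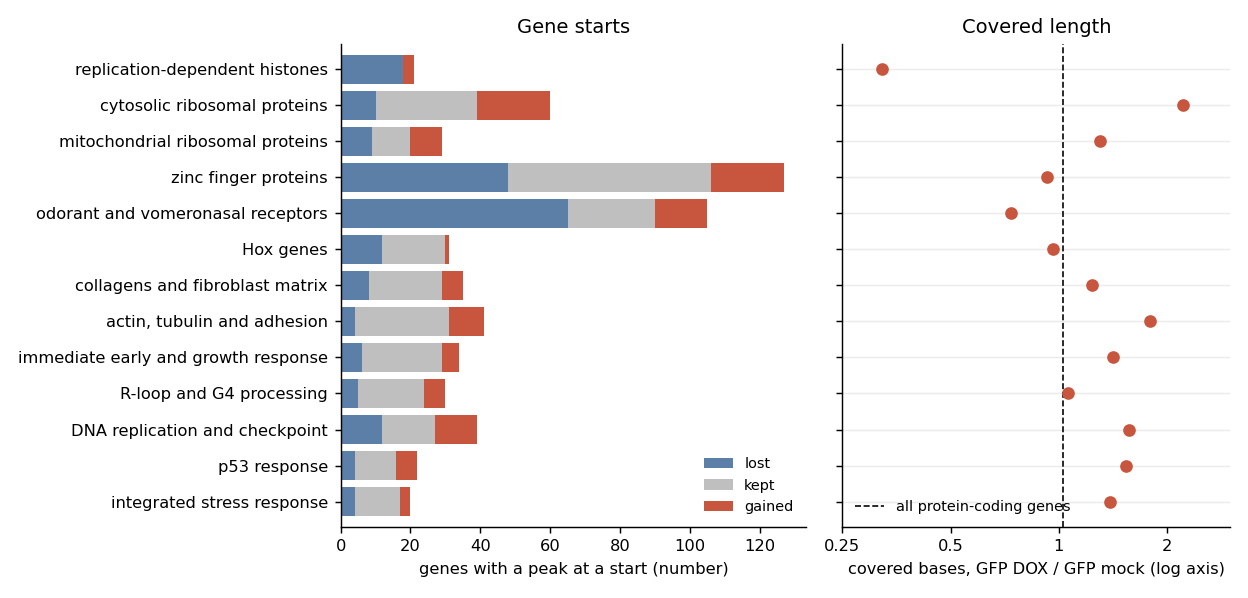
Left, the number of genes of each group with a start peak lost (blue), kept (gray) or gained (red) in GFP DOX against GFP mock. Right, covered bases in GFP DOX over GFP mock for the same groups on a log axis, with a dashed line at the ratio of all protein-coding genes (1.02); histone genes are lowest (0.322) and cytosolic ribosomal protein genes highest (2.21).

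Some of the genes with the greatest differences in covered length, were picked after their values were seen. *Lrp1*, an endocytic receptor, was covered over 14014 bases in GFP mock and 26774 in GFP DOX. *Csf1*, a macrophage growth factor made by fibroblasts, was covered over 8311 and 20573 bases, with 5 start peaks in GFP mock, the strongest 2970 bp wide, and 1 of 11089 bp in GFP DOX. *Ahnak*, a giant scaffold protein, had 5420 and 15355 covered bases and *Lmna*, which encodes the nuclear lamins A and C, 4197 and 12820. The neuronal genes *Rbfox3*, a splicing factor, and *Zfhx4*, a homeobox factor, went from 10909 to 3124 and from 8398 to 780 bases.

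By chromosome, the share of mock peaks lost ranged from 60.4% on chromosome 3 to 76.8% on chromosome 12 among the autosomes and was 63.8% on the X chromosome. DOX peaks numbered between 0.574 and 0.745 of mock peaks on each autosome.

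In Cre cells peaks outside genes were more numerous with doxycycline, and those in other positions less. Doxycycline-treated Cre cells had 0.677 times the start peaks of mock-treated ones, 0.736 times the end peaks, 0.884 times the body peaks and 1.47 times the peaks outside genes, against 0.885, 1.01, 0.684 and 0.647 in GFP cells. Start peaks of Cre cells covered 9.38 Mb without and 7.10 Mb with doxycycline. In genes of 500 kb or more, covered bases with doxycycline were 2.35 times those without, against 0.757 times in GFP cells. With 1 library per condition the difference between genotypes was not tested. The narrowest peak had 213 bp in Cre DOX, 132 bp in Cre mock, 106 bp in GFP mock and 107 bp in GFP DOX. Cre DOX had no peak of at most 150 bp. How far this bears on the covered lengths and overlaps of the Cre lists was not tested.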

How the data were processed

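DRIP-seq with the S9.6 antibody was carried out in 8 samples, of which 4 were immunoprecipitated libraries and 4 inputs; the inputs were not analysed here. Per the study's methods, reads were trimmed, aligned to mm10 with BWA and passed to MACS2 for peak calling with the nf-core ChIP-seq pipeline. The version of MACS2 is not given in the sources used here. The methods give the narrow-peak option of the pipeline, whereas the deposited lists are in broad-peak format. For its own comparison the study took only peaks in the top decile of scores of each sample, whereas all peaks were used here. The deposited peak lists give a score per peak, a fold enrichment over input (a ratio), and −log10 p-values and −log10 q-values, all made by the authors' peak caller. The score equaled 10 times the −log10 q-value, rounded down, in 87608 of 87613 GFP mock peaks, and the lowest −log10 q-value was 1.01. Peaks were called per library, so no spread between replicates exists. A weaker library yields fewer and narrower calls, and a broad enriched region can be called as 1 wide or several narrow peaks, which moves peak numbers and covered length apart. Depth is unknown.

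The lists were read with Python 3.11.15 (pandas 2.3.3, NumPy 2.4.6, SciPy 1.17.1) and figures were drawn with matplotlib 3.10.9. Peaks were shared at 1 bp of overlap. Each peak was put in the first fitting class among start (within 1 kb of any transcript start of a GENCODE M21 protein-coding gene), end (within 1 kb of the 3′ end), body and outside. A gene lost, kept or gained a peak by the presence of peaks in its window in each list; end windows disregarded peaks at starts. Covered length counts bases under peaks in a gene with 1 kb on either side. Predicted G4s were 25-base windows with an absolute G4Hunter score of at least 1.5, with runs capped at 4. Sequences came from the GRCm38.p6 reference. The overlap procedure was tested on simulated data, in which 100.0% of 87613 peaks were called right. In the simulation retained peaks still met their origin by construction. It therefore checks the procedure and not how well loss is called in these lists. No comparison between conditions was tested.

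Members and gene lists were chosen with earlier results of these data known. Named genes were those with the highest score or width per outcome and position, unnamed gene models being passed over: a lost gene had no DOX peak, and a gained gene no mock peak, in the gene or within 1 kb, and kept genes were ranked by the mean of their within-list score ranks. The 5 genes with most mock body peaks, the highest-scoring members of each list by outcome, and *Actb*, *Bcl6*, *Rtel1* and *Rnaseh1* were added. List members given for covered length were picked after their values were seen. A few genes that these rules name are not reported here. Alternatives were other q-value thresholds, top deciles, equal numbers of peaks, other overlap rules, repeats removed, other windows, 5′-most starts and peak midpoints.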

Additional observations from a re-analysis of the deposited data

Results flagged for a closer look

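Of 25 ratios of covered length with doxycycline over mock, 20 lay on opposite sides of 1 in GFP and Cre cells, which is why they are listed here. With 1 library per condition the difference was not tested. The narrowest peak had 213 bp in Cre DOX and 132 bp in Cre mock, against 107 and 106 bp in GFP DOX and GFP mock. Peaks at gene starts had a ratio of 1.22 in GFP cells and 0.756 in Cre cells, and peaks at gene ends 1.32 and 0.850. With a −log10 q-value of at least 3 all of these were below 1, with 0.867 and 0.545 at starts and 0.582 and 0.758 at ends. Body peaks had 0.863 and 1.39, and 0.511 and 0.717 at a −log10 q of 5 or more. Peaks outside genes had 0.809 and 2.66, and 0.716 and 0.527 at 10 or more.

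By gene length, GFP and Cre cells had ratios of 1.32 and 0.858 below 5 kb, 1.37 and 0.777 from 5 kb, 1.28 and 0.769 from 10 kb, and 1.10 and 0.872 from 20 to 50 kb. At a −log10 q of 3 or more the GFP ratio was 0.857 from 10 kb and 0.641 from 20 kb. Longer genes had ratios of 0.832 and 1.25 from 100 kb, 0.779 and 1.76 from 200 kb, and 0.757 and 2.35 from 500 kb.

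Among gene groups, histone genes had 0.322 in GFP and 1.10 in Cre cells, zinc finger genes 0.926 and 1.30, and odorant and vomeronasal receptor genes 0.736 and 2.67. The GFP ratio of zinc finger genes was 1.19 with equal numbers of peaks and 0.473 at a −log10 q of 3 or more, and that of the receptor genes 0.437 without peaks over 50% repeat-masked. Actin, tubulin and adhesion genes had 1.79 and 0.721, immediate early genes 1.42 and 0.683, collagen and matrix genes 1.24 and 0.775, and p53 response genes 1.54 and 0.943. Mitochondrial ribosomal protein genes had 1.30 and 0.899, and genes that act on R-loops and G4s 1.06 and 0.893. At a −log10 q of 3 or more the GFP ratios of both groups were below 1, at 0.353 and 0.854, as was that of collagen and matrix genes, at 0.901. Cytosolic ribosomal protein genes were not among the 20, with 2.21 and 1.05.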

How the results depend on the processing

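With 1 library per condition no replicate could be left out, no paired analysis was possible because each condition had 1 sample, and depth is unknown, so a missing peak may lie just under the threshold of the peak caller. Shares of lost mock peaks over all, start, body and end peaks, and of gained DOX peaks over all and start peaks, moved with most settings. In that order they were 77.6, 67.9, 81.1, 72.3 and 58.3% (start gains like the main value) at −log10 q of at least 2; 71.5, 72.4, 72.9, 60.0, 34.3 and 41.4% at 5; 75.3, 73.6, 76.2, 68.4, 64.2 and 68.1% for the top decile of each list; 50.3, 35.6, 56.3, 44.9, 30.3 and 21.4% for the top decile of the split list against all peaks; 64.7, 50.6, 70.7, 59.3, 65.0 and 61.2% for equal numbers of peaks; 79.7, 70.5, 83.2, 75.0, 72.6 and 71.6% where 50% had to be covered; and 57.1, 42.9, 63.6, 49.2, 39.0 and 34.3% where a peak within 1 kb was enough. Without peaks that were over 50% repeat-masked the first 5 were 74.7, 55.6, 79.6, 61.6 and 65.7%. Start losses, end losses and start gains were 53.6, 59.7 and 47.7% with windows of 500 bp, and 60.4, 68.8 and 56.8% with 2 kb. With the 5′-most start they were 53.5, 60.6 and 46.0%, and body losses 73.6%. With peak midpoints body losses were 74.3%. Genes that lost and gained start peaks numbered 167 of 241 and 48 of 122 at 5, 681 of 962 and 563 of 844 for top deciles, 233 of 962 and 99 of 844 for the top decile against all, and 4470 of 6755 and 3534 of 5672 at 50% covered; 2131 of 3596 lost and 1014 of 2479 gained one at 2. With equal numbers of peaks, 1785 of 5156 lost and 2301 of 5672 gained one, so that gains outnumbered losses. With the settings of the report they were 2677 of 6755 and 1594 of 5672. Of values with settings chosen after seeing the data, the length ratio at starts was 0.867 at 3 and 0.979 at 5, against 1.22. Ribosomal protein genes had 7.79 and 10.8 there, where their covered mock length was small. Genes of at least 200 kb had 1.07 with equal numbers of peaks, against 0.770. Histone genes with a lost start peak numbered 8 at 2, 3 at 3, and 11 with equal numbers. Causes were not tested.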
